A study of Populus tremula x Populus alba with 6 samples.

Results

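The comparison set wild-type (WT) poplar after drought and rewatering against WT poplar under control conditions, by the transposable element (TE) loci found as extrachromosomal DNA. Its members were all TE loci in the deposited lists of these 2 libraries, matched where chromosome, start and end were identical. They made up 226 of the 436 distinct loci of the series. The drought list held 115 loci and the control list 149. Both lists shared 38 loci, 77 loci were in the drought list only and 111 in the control list only.

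The WT drought library came from shoot apical meristem of a hybrid poplar, Populus tremula x Populus alba, clone 717-1B4, after drought and rewatering. The WT control library came from the same tissue and clone under the condition labelled control. The other 4 libraries, used here only as background, came from RNAi lines 15 and 23, both directed against ddm1, each after drought and rewatering and under control. With 1 library per group there was no spread within a group, so no test of drought against control was possible, and a difference between plants and a difference between watering regimes cannot be told apart. The labels do not say how many plants gave each library, how severe the drought was or how long it lasted.

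Mobilome-seq enriches and amplifies circular DNA that lies outside the chromosomes, and then sequences it. Active TEs can leave such circles. An LTR retrotransposon carries the same long terminal repeat (LTR) at both ends, around an internal part that codes for its proteins. It copies itself through RNA, and the DNA copy can be closed into circles that keep a single repeat or both. Recombination between the repeats of a genomic copy can also leave a lone LTR in the chromosome. Gypsy and Copia are the main superfamilies of these elements in plants. LINEs and SINEs copy through RNA without terminal repeats, DNA transposons move by excision, and Helitrons are thought to move by a rolling circle.

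Each listed locus carried a length, a signal headed DOC and another headed SR, here called the DOC value and the SR value. The headers do not expand these abbreviations. DOC was taken to mean depth of coverage and SR split reads, which span a junction, for example where a circle is closed. Both were whole numbers, taken as not scaled to library size, and each came with the fraction of the locus that it covered. Lowest listed values were 4 (drought) and 3 (control) for DOC and 3 in both lists for SR, and the shortest loci were 99 bp and 104 bp. No source used here gives the authors' threshold for listing, so a locus missing from a list is called unlisted and not absent, and no fold change is given against it. Summed DOC was 30529 in the drought list and 92011 in the control list. More circles per cell and more cells with circles cannot be told apart in this assay, and since DNA was measured, the labelled tissue could not be checked against marker genes.

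The first question was how far the lists overlapped. The shared 38 loci were 33.0% of the drought list (exact 95% interval 24.6 to 42.4) and 25.5% of the control list (18.7 to 33.3). The ratio of list sizes, drought over control, was 0.772 (0.60 to 0.991). These intervals cover counting error only, and that of the ratio reached past 1 (0.612 to 1.02) when loci within 1000 bp were merged. Loci of both lists lay on 19 chromosomes. Chromosome 15 had 1 locus in the drought list and 7 in the control list, chromosome 13 had 1 and 6, and chromosome 6 had 7 and 15, whereas chromosome 12 had 5 and 2 and chromosome 1 had 23 and 26.

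Loci in both lists carried more signal than loci in a single list. A listing threshold on signal could give this difference by itself, which was not tested. The median DOC value of loci in both lists was 82 (drought) and 99.5 (control). It was 16 for the 77 drought-only loci and 26 for the 111 control-only loci. On the scale of DOC per 100 bp, the medians were 19.4 (drought) and 20.8 (control) for loci in both lists, 6.67 for drought-only loci and 5.99 for control-only loci. Median SR was 13.5 (drought) and 14 (control) in the shared set, 6 in the drought-only set and 8 in the control-only set. Among drought-only loci 6 reached a DOC value of 100, and among control-only loci 21 did. The list of 10 highest DOC values in the drought library held 9 shared loci and 1 drought-only locus, while that of the control library held 4 shared and 6 control-only loci.

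Shared loci were also found more often than single-list loci in the RNAi lists. A DOC value of at least 20 was reached by 84.2% (drought) and 86.8% (control) of shared loci. It was reached by 36.4% of drought-only and 59.5% of control-only loci. The shares below were not compared at equal signal, so they are a description. Of the 38 shared loci, 30 were also listed in at least 1 RNAi library (78.9%, exact 95% interval 62.7 to 90.4). The number was 23 of 77 for drought-only loci (29.9%, 19.97 to 41.4) and 40 of 111 for control-only loci (36.0%, 27.1 to 45.7). Of the 23 drought-only loci, 5 were in RNAi drought libraries alone, 13 in RNAi control libraries alone and 5 in both kinds. Thus 10 drought-only loci of WT were in an RNAi drought library and 18 in an RNAi control library, and of the control-only loci of WT 18 and 33 were. The RNAi drought lists were shorter (79 and 44 loci) than the RNAi control lists (169 and 109).

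The WT lists differed in which part of an LTR retrotransposon was listed. Among Gypsy and Copia loci, 58 of 87 in the drought list were named first as LTR (66.7%, exact 95% interval 55.7 to 76.4), against 50 of 107 in the control list (46.7%, 37.0 to 56.6). The difference was 19.9 percentage points, with a 95% interval of 5.90 to 32.8 that covers counting error only. Weighted by length, the LTR shares were 42.1% after drought and 29.5% under control, a difference of 12.6 percentage points. Among loci in a single list, 43 of 59 (72.9%) were LTR in the drought-only set and 35 of 79 (44.3%) in the control-only set. Loci in both lists lay between, with 15 of 28 (53.6%).

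The difference was wide for Copia and within counting error for Gypsy. Unlike the share over both classes, this split by class was not planned, and the classes were not tested against each other. The drought list held 17 LTR and 4 internal Copia loci (81.0% LTR, exact 95% interval 58.1 to 94.6), and the control list held 6 LTR and 14 internal loci (30%, 11.9 to 54.3). The difference was 51.0 percentage points (20.6 to 70.1). Counts of Copia loci were close, 21 in the drought list and 20 in the control list, so for Copia the lists differed in the part listed more than in number. For Gypsy the drought list held 41 LTR and 25 internal loci (62.1% LTR) and the control list 44 and 43 (50.6%), a difference of 11.5 percentage points whose interval, -4.29 to 26.4, included 0. With loci of at least 200 bp alone, the Gypsy difference was 1.77 percentage points and the Copia difference 50.0. Copia then had 6 LTR loci of 8 after drought and 4 of 16 under control. Weighted by length, the Gypsy and Copia differences were 6.19 and 36.7.

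**Figure D1:**
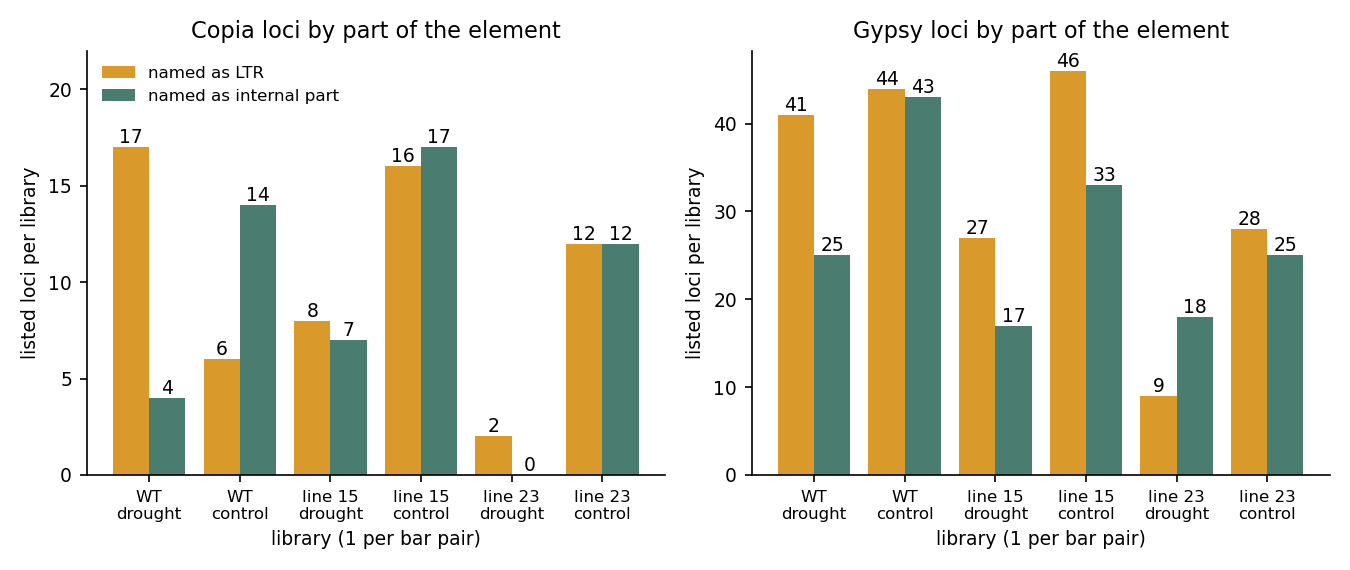
Number of Copia loci (left) and Gypsy loci (right) named first as LTR (orange) or as internal part (green) in each of the 6 lists, 1 library per bar pair. WT drought had 17 LTR and 4 internal Copia loci and WT control 6 and 14, while in both RNAi control lists the parts were nearly equal (16 and 17 in line 15, 12 and 12 in line 23).

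In the RNAi lists the parts of Copia were closer in number. Line 15 had 8 LTR and 7 internal Copia loci after drought and 16 and 17 under control, and line 23 had 2 and 0 after drought and 12 and 12 under control. For Gypsy, the LTR share was 61.4% after drought and 58.2% under control in line 15, and 33.3% and 52.8% in line 23. Whether the shift in WT differed from that in the RNAi lines was not tested.

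Copia LTR loci of the drought-only set were short, had low DOC values and were spread over many families. The 15 loci carried 10 first names and lay on 13 chromosomes, with lengths from 128 to 458 bp (median 189) and DOC values from 6 to 35 (median 12). Their SR values ran from 3 to 32 (median 6). At 6 of the 15, DOC covered the whole locus. Copia-56_PTr-LTR supplied 4 and Copia-93_PTr-LTR 3, and 7 of the 15 were listed in an RNAi library. The highest DOC and SR of the set, 35 and 32, belonged to Copia9-PTR_LTR on chromosome 18 (7702141 to 7702329, 189 bp). The 4 control-only Copia LTR loci had a similar median DOC value, 13. Per 100 bp, the median DOC over all Copia loci was 6.11 in the drought list and 3.88 in the control list.

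In contrast, the control-only Copia loci were mostly long internal parts. There were 12, with 8 first names, lengths from 113 to 4951 bp (median 944) and DOC values from 4 to 185 (median 31). The longest was Copia21-PTR_I-int on chromosome 10 (17798954 to 17803904), with a DOC value of 185 and an SR value of 62. Copia5-PTR_I-int on chromosome 12 (3518494 to 3520018, 1525 bp) had nearly equal signals, 68 for DOC and 67 for SR. Drought-only internal Copia loci numbered 2, namely Copia16-PTR_I-int on chromosome 3 (18680068 to 18681384, 1317 bp), with a DOC value of 76 and an SR value of 46, and Copia43-PTR_I-int on chromosome 3 (2217166 to 2217267, 102 bp), with 7 and 5.

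Counted by element, the same Copia loci showed the pattern in several families. Of 19 Copia elements listed in WT, 9 had more LTR loci in the drought list and 2 had fewer. For internal loci, 0 had more in the drought list and 8 had fewer. Most of these elements differed by only 1 locus, so the count is a description of the same loci and adds no separate evidence. For 4 elements, named after their values were seen, the drought list held LTR loci and no internal locus while the control list held an internal locus. These were Copia-56_PTr (5 LTR loci after drought, against 1 LTR and 1 internal locus under control), Copia-93_PTr (3, against 1 and 1), Copia5-PTR (1, against 0 and 1) and Copia51-PTR (1, against 0 and 1). The internal locus of Copia-93_PTr, on chromosome 6, had a DOC value of only 4. Its later names were those of the LTR of the same element. The opposite pattern, internal loci and no LTR locus after drought but an LTR locus under control, was seen for 0 Copia elements. Among Gypsy elements the first pattern was seen for 1 and the opposite for 3. Among 26 Gypsy elements, 7 had more LTR loci in the drought list and 10 fewer, and 1 had more internal loci there and 12 fewer.

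Copia-56_PTr-LTR showed the most uneven number of loci among Copia families. It had 5 loci in the drought list and 1 in the control list, all of 131 bp. The shared locus, on chromosome 1 (40683871 to 40684001), had DOC values of 56 after drought and 39 under control and SR values of 3 in both. The 4 drought-only copies had DOC values of 8 to 25 and SR values of 4 to 6, and all 4 were listed in an RNAi library. The family had 4 loci in the line 15 drought list and 6 in its control list, and 0 and 2 in line 23. Without Copia-56_PTr-LTR the Copia difference in LTR share was 48.7 percentage points.

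Copia-93_PTr-LTR had 3 loci of 251 to 258 bp in the drought list, with DOC values of 6 to 11, and 1 locus of 249 bp in the control list, with a DOC value of 10. Its drought and control loci were at different positions. Copia43-PTR_I-int ran the other way, with 1 locus in the drought list (DOC 7) and 4 in the control list (DOC 8 to 111).

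Locus length differed between the lists and between the parts. Median length was 229 bp in the drought list and 389 bp in the control list, and 44.3% of drought loci against 27.5% of control loci were under 200 bp. Loci over 1000 bp numbered 9 (7.83%) after drought and 25 (16.8%) under control, and total listed length was 54494 bp and 117488 bp. Of this total, internal loci held 27641 bp after drought and 66153 bp under control, and LTR loci 20072 bp and 27703 bp. By part, the gap in median length was widest in LTR loci, with medians of 208.5 bp after drought and 381.5 bp under control. The mix of parts differed too, with 29 internal loci of 115 after drought and 57 of 149 under control. Internal loci had medians of 557 bp and 575 bp, and loci of elements without LTRs 178 bp and 201 bp. Among loci with a DOC value of at least 20 the medians were 493 bp and 546 bp, a smaller gap than over all loci. The WT control list was the longest by this measure, since the medians of the 4 RNAi lists lay between 256 and 308.5 bp.

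**Figure D2:**
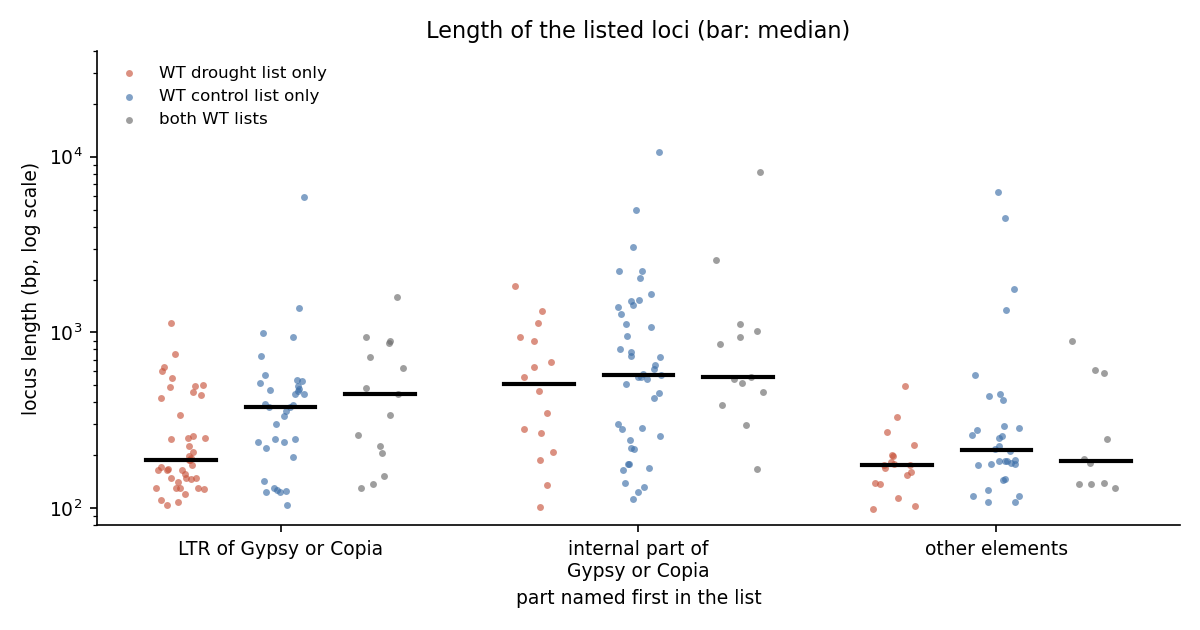
Length of each listed WT locus (bp, log axis) by the part named first, as points for loci in the drought list only (red), in the control list only (blue) and in both lists (grey), with black bars at the medians. LTR loci of the drought-only set have a median of 188 bp and those of the control-only set 376 bp, while internal loci have medians of 511 and 576 bp.

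Gypsy was the largest class in both lists, with 66 of 115 loci after drought (57.4%) and 87 of 149 under control (58.4%). The difference was -0.998 percentage points (95% interval -12.9 to 10.8), so the class share differed by less than the counting error. The Gypsy share was instead higher after drought with a DOC value of at least 20 (63.3% after drought and 56.6% under control) and when loci were weighted by length (73.7% and 62.8%). Copia held 18.3% and 13.4%, a difference of 4.84 percentage points (-3.93 to 14.1) that also lay within the counting error. Its direction turned when only loci with a DOC value of at least 20 were counted (10% after drought and 12.1% under control) or when loci were weighted by length (13.8% and 17.1%). The Ogre lineage of very large Gypsy elements supplied 9 loci after drought and 15 under control.

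**Figure D3:**
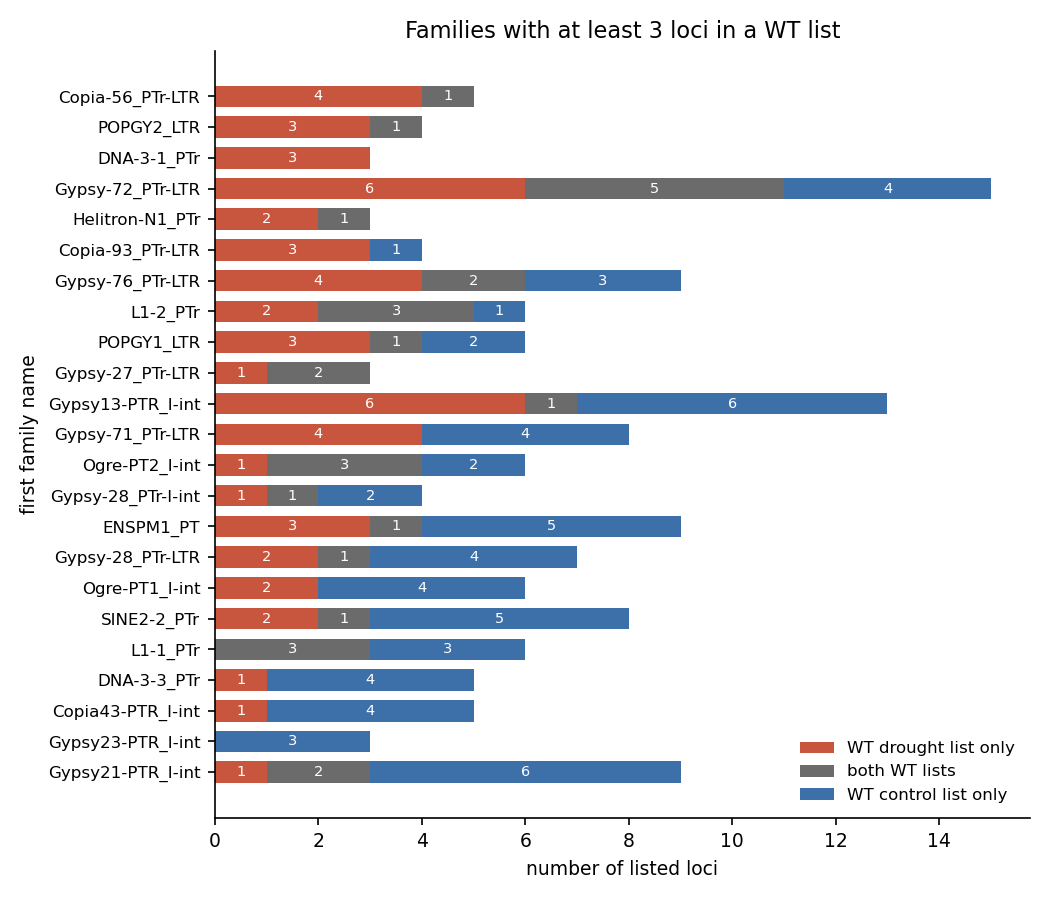
Number of loci of each first family name with at least 3 loci in a WT list, in the drought list only (red), in both lists (grey) and in the control list only (blue). Of the 23 families, 10 had more loci in the drought list, 11 had fewer and 2 had equal numbers. The 2 equal families, Gypsy-71_PTr-LTR (4 and 4) and Gypsy13-PTR_I-int (7 and 7), shared 0 and 1 positions. Over all families, 33.0% of the drought list and 25.5% of the control list were shared.

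By first name, 50 families were listed after drought and 65 under control, with 38 in both. Of the 12 names in the drought list alone, 9 were LTR and 1 was an internal part, and of the 27 in the control list alone, 9 were LTR and 11 internal. Of the 77 drought-only loci, 63 carried a name that the control list also held, so most were other positions of families already listed there. Of the 111 control-only loci, 77 carried a name that the drought list also held. How reads that match several copies of a family were placed was not examined here.

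Gypsy-72_PTr-LTR was the largest family after drought, with 11 loci, against 9 under control and 5 in both. Its 6 drought-only loci had DOC values of 6 to 280 (median 88), and its 4 control-only loci had DOC values of 4 to 36 (median 14). All 6 drought-only loci were at least 249 bp long and the control-only loci measured 123 to 535 bp. The leading drought-only locus of the whole list belonged to it, on chromosome 1 (40835193 to 40835830, 638 bp), with a DOC value of 280 and an SR value of 13, and it was listed in line 15 (DOC 60 after drought and 58 under control) and in line 23 control (32).

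Single loci of other Gypsy families in the drought-only set had high SR values. Over all 28 drought-only Gypsy LTR loci the median SR was 8. Gypsy10-PTR_LTR on chromosome 12 (7546658 to 7546828, 171 bp) had a DOC value of 196 and an SR value of 126, the highest SR of the set, and was in no RNAi list. Gypsy-71_PTr-LTR on chromosome 8 (400236 to 400355, 120 bp) had a DOC value of 104 and an SR value of 111, and SR covered 0.908 of it. Gypsy-28_PTr-LTR on chromosome 2 (18151906 to 18152070, 165 bp) had a DOC value of 5 beside an SR value of 47. At the last 2 loci SR exceeded DOC, which was seen at 8 loci after drought and 15 under control. Of the other high drought-only loci, Ogre-PT1_LTR on chromosome 14 (15725086 to 15725295) had a DOC value of 135, and Gypsy-28_PTr-I-int on chromosome 15 (6495867 to 6497710), the longest of the set at 1844 bp, had 106.

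Gypsy13-PTR_I-int had 7 loci in each list and 1 in both. Over all families, 33.0% of the drought list and 25.5% of the control list were in both. The drought-only copies measured 188 to 1136 bp with DOC values of 12 to 88, and the control-only copies 259 to 3058 bp with 22 to 384. On chromosome 11 a drought-only copy (1415792 to 1416927, DOC 88, SR 38) lay 391 bp from a control-only copy (1417319 to 1420376, DOC 119, SR 90). Neighbouring stretches were thus listed in different libraries, and no annotation was used here that could join them. Likewise a drought-only Copia46-PTR_LTR locus on chromosome 1 (45375452 to 45375909, DOC 27) lay 4253 bp from a control-only locus of the same name (45370725 to 45371198, DOC 16).

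Gypsy21-PTR_I-int was listed more often under control, with 3 loci after drought, 8 under control and 2 in both. Among its 6 control-only loci was the longest locus of either list, on chromosome 2 (17639269 to 17649825, 10557 bp), with a DOC value of 632 and an SR value of 260. POPGY2_LTR showed the reverse, with 4 loci after drought and 1 under control. Its 3 drought-only copies were 142 to 149 bp long, had DOC values of 10 to 24, and were all listed in an RNAi library.

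In WT, Gypsy23-PTR_I-int was in the control list alone, at 3 loci within a stretch of chromosome 1. The locus at 44984628 to 44984848 (221 bp) had a DOC value of 49200 and an SR value of 943, which came to 22262 DOC per 100 bp. Its neighbours at 44982256 to 44983760 and 44974374 to 44975801 had DOC values of 74 and 71 and SR values of 17 and 5. The short locus thus stood far above stretches of the same element beside it, which lay on the level of ordinary members of the list. It held 53.5% of the summed DOC of the WT control list. The same locus was in both RNAi control lists, with DOC values of 51684 in line 15 and 36388 in line 23 and SR values of 1105 and 722, and in neither RNAi drought list. Of its neighbours, the locus at 44974374 was listed in line 23 after drought (DOC 27) and in line 15 under control (79), and that at 44982256 in line 15 under control (106).

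Further control-only loci of high signal came from several classes. SAT-1_PT, a satellite repeat, had DOC values of 6927 and 262 at a pair of control-only loci on chromosome 11 (9097155 to 9103437 and 9109316 to 9111084), with SR values of 8 and 6. The WT drought list named no satellite first, whereas in line 15 the longer of these loci was listed after drought (DOC 9069) as well as under control (5202). Gypsy-76_PTr-LTR on chromosome 15 (6424709 to 6430578, 5870 bp) had a DOC value of 1142 and an SR value of 242. DNA-3-2B_PTr on chromosome 4 (3534056 to 3534164, 109 bp) had 828 and 107, which put it second by DOC per 100 bp in the control list, at 760, and it was listed in line 23 after drought (DOC 20). Gypsy-28_PTr-LTR on chromosome 2 (18549439 to 18549905, 467 bp) had 573 and 4, and Gypsy-71_PTr-LTR on chromosome 7 (9592206 to 9592564, 359 bp) had 402 and 33. L1-4_PTr, a LINE on chromosome 6 (19737101 to 19741604, 4504 bp), had 268 and 85. By contrast, the longest drought-only locus measured 1844 bp and the highest drought-only DOC was 280.

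LINE and SINE loci numbered 11 after drought and 19 under control, with 7 in both. The LINE family L1-1_PTr had 3 loci after drought, all shared, and 6 under control. L1-2_PTr had 5 after drought and 4 under control, and its loci were uniform, 138 or 139 bp long in the drought list. SINE2-2_PTr had 3 and 6 loci, and its only shared copy lay on chromosome 6 (2112611 to 2112800).

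DNA transposons numbered 11 after drought and 17 under control, with 2 in both. The DNA-3 families differed in which copies were listed. DNA-3-1_PTr had 3 loci after drought (99 to 176 bp, DOC 10 to 40) and 0 under control. DNA-3-3_PTr had 1 locus after drought, on chromosome 16 (4150312 to 4150641, DOC 94), and 4 under control (DOC 50 to 274). ENSPM1_PT, a CACTA transposon, had 4 loci after drought and 6 under control, with 1 shared. Its 3 drought-only loci had DOC values of 4 to 21 and its 5 control-only loci 20 to 332. Helitrons numbered 6 after drought and 4 under control, of which Helitron-N1_PTr on chromosome 4 (4328049 to 4328178) was the only shared locus.

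At the 38 shared loci the signals themselves could be compared, since the locus and its length were the same. As deposited, DOC was lower after drought at 25 loci and higher at 13, with a median log2 ratio, drought over control, of -0.38 (range -2.36 to 2.03). It was at least 2-fold lower at 4 loci (10.5%) and at least 2-fold higher at 6 (15.8%), and at least 1.5-fold lower at 11 (28.9%) and higher at 9 (23.7%). These shares are over all loci that could be compared in WT. The matching shares for a 2-fold difference were 23.3% lower and 3.33% higher over 30 loci in line 15, and 33.3% lower and 13.3% higher over 15 loci in line 23. Dividing each value by the summed DOC of its list added 1.59 to every log2 ratio, after which DOC was higher after drought at 37 loci and lower at 1. Directions below therefore hold for the values as deposited, and the order among loci does not depend on that choice.

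**Figure D4:**
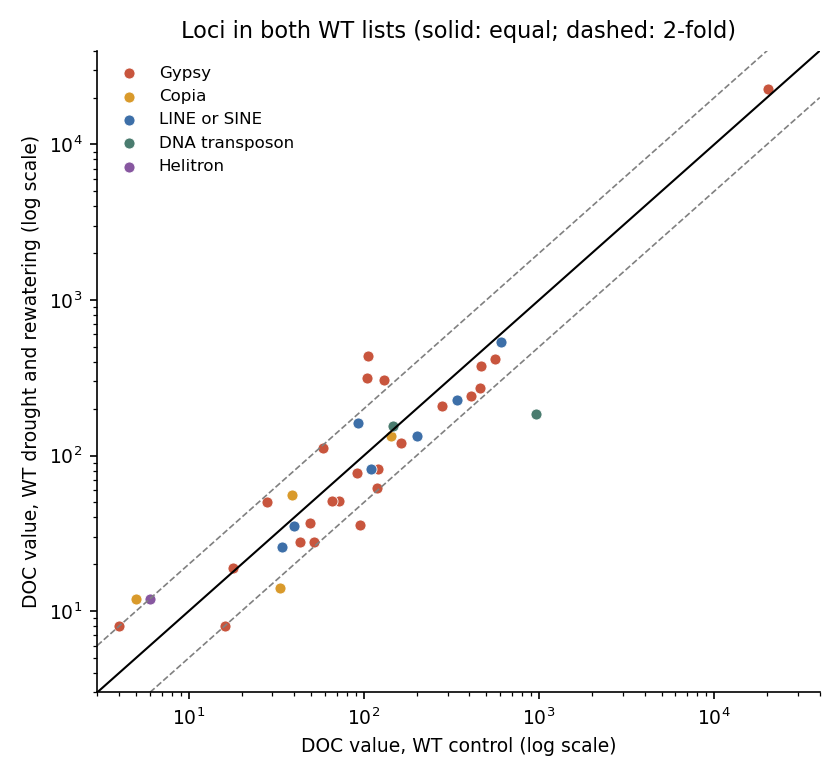
DOC value after drought (vertical) against DOC value under control (horizontal) at the 38 loci in both WT lists, log axes, coloured by class, with a solid line at equal values and dashed lines at a 2-fold difference. Most points lie within the 2-fold lines over the whole range up to 22796 and 20299, 4 lie on or below and 6 on or above them.

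The rank order of shared loci was largely kept. Spearman's rho of DOC values between the libraries was 0.889, and that of SR values 0.751, over 38 loci of the same 2 libraries, given as a description. The leading locus of the drought list, Gypsy-27_PTr-I-int (chromosome 13, 8689906 to 8698099, an 8194 bp locus), had DOC values of 22796 after drought and 20299 under control, a log2 ratio of 0.17. Its SR values were 6 and 13, and SR covered 0.0105 and 0.0181 of it.

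At shared loci, DOC was more often lower than higher for both parts. Of 15 shared Gypsy and Copia LTR loci, 8 were lower after drought and 7 higher, and of 13 shared internal loci, 10 were lower and 3 higher. Both Copia LTR loci had higher DOC after drought (Copia31-PTR_LTR on chromosome 2 with 12 against 5, and Copia-56_PTr-LTR with 56 against 39). Both Copia internal loci had lower DOC (Copia34-PTR_I-int on chromosome 3 with 14 against 33, and Copia1-PTR_I-int beside it with 133 against 143). The median log2 ratios of Gypsy LTR and internal loci were close, at -0.41 and -0.44.

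Gypsy-72_PTr-LTR gave the largest ratio. On chromosome 11 (11626981 to 11627318, 338 bp) its DOC was 434 after drought and 106 under control (log2 ratio 2.03) and its SR 368 and 60 (2.62), so both signals were higher after drought. A further copy on chromosome 2 (5326804 to 5327529) had DOC values of 306 and 130 (1.24) and nearly equal SR, 13 and 14. The copies on chromosomes 16 and 19 had log2 DOC ratios of 0.84 and 0.08, and that on chromosome 1 (38198036 to 38198481) had -0.62. Hence 4 of 5 shared loci of this family had higher DOC after drought, while 25 of all 38 had lower DOC.

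GYPOT1_I-int, a Gypsy internal part on chromosome 1 (36180667 to 36181680, 1014 bp), had DOC values of 314 after drought and 104 under control (log2 ratio 1.59). Its SR ran the other way, 38 against 66, and SR covered 0.470 of it after drought and 0.927 under control. Ogre-PT2_I-int on chromosome 11 (12996131 to 12996687) had DOC values of 111 and 58 (0.94) and SR values of 75 and 12 (2.64), the largest SR ratio. The other shared Ogre-PT2_I-int loci, both on chromosome 1, had lower DOC after drought, with 62 against 119 and 376 against 464. Members of a family thus differed in direction from locus to locus.

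ENSPM1_PT on chromosome 14 (4297763 to 4298011, 249 bp) had the lowest ratio, with DOC values of 186 after drought and 956 under control (-2.36) and SR values of 22 and 50. It was also the only shared locus still lower after drought when DOC was divided by the list sum. Gypsy21-PTR_I-int on chromosome 6 (12230391 to 12230909, 519 bp) had DOC values of 36 and 95 (-1.40) and the lowest SR ratio, 3 against 52 (-4.12). SR covered 0.0443 of that locus after drought and 0.763 under control. A control-only Gypsy21-PTR_I-int locus (12229579 to 12230199) lay 191 bp from it, so an unlisted stretch lay beside the locus of lower signal. Gypsy-27_PTr-LTR on chromosome 4 (12762413 to 12763043) was exactly 2-fold lower, with DOC values of 8 and 16, beside SR values of 14 and 12. At the other end, POPGY1_LTR on chromosome 17 (8 against 4) and Helitron-N1_PTr on chromosome 4 (12 against 6) were exactly 2-fold higher at DOC values near the lowest listed.

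The 6 shared LINE loci all ran one way. All 3 shared L1-1_PTr loci had lower DOC after drought, with 226 against 342 on chromosome 8, 134 against 202 on chromosome 7 and 535 against 607 on chromosome 19. All 3 shared L1-2_PTr loci were lower too, with 82 against 110 on chromosome 8, 26 against 34 on chromosome 7 and 35 against 40 on chromosome 4. Their log2 ratios, -0.60 to -0.18, lay around the median of all shared loci, -0.38. SINE2-2_PTr on chromosome 6 was the exception in this class, with DOC values of 162 and 92 (0.82) and SR values of 34 and 8 (2.09).

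**Figure D5:**
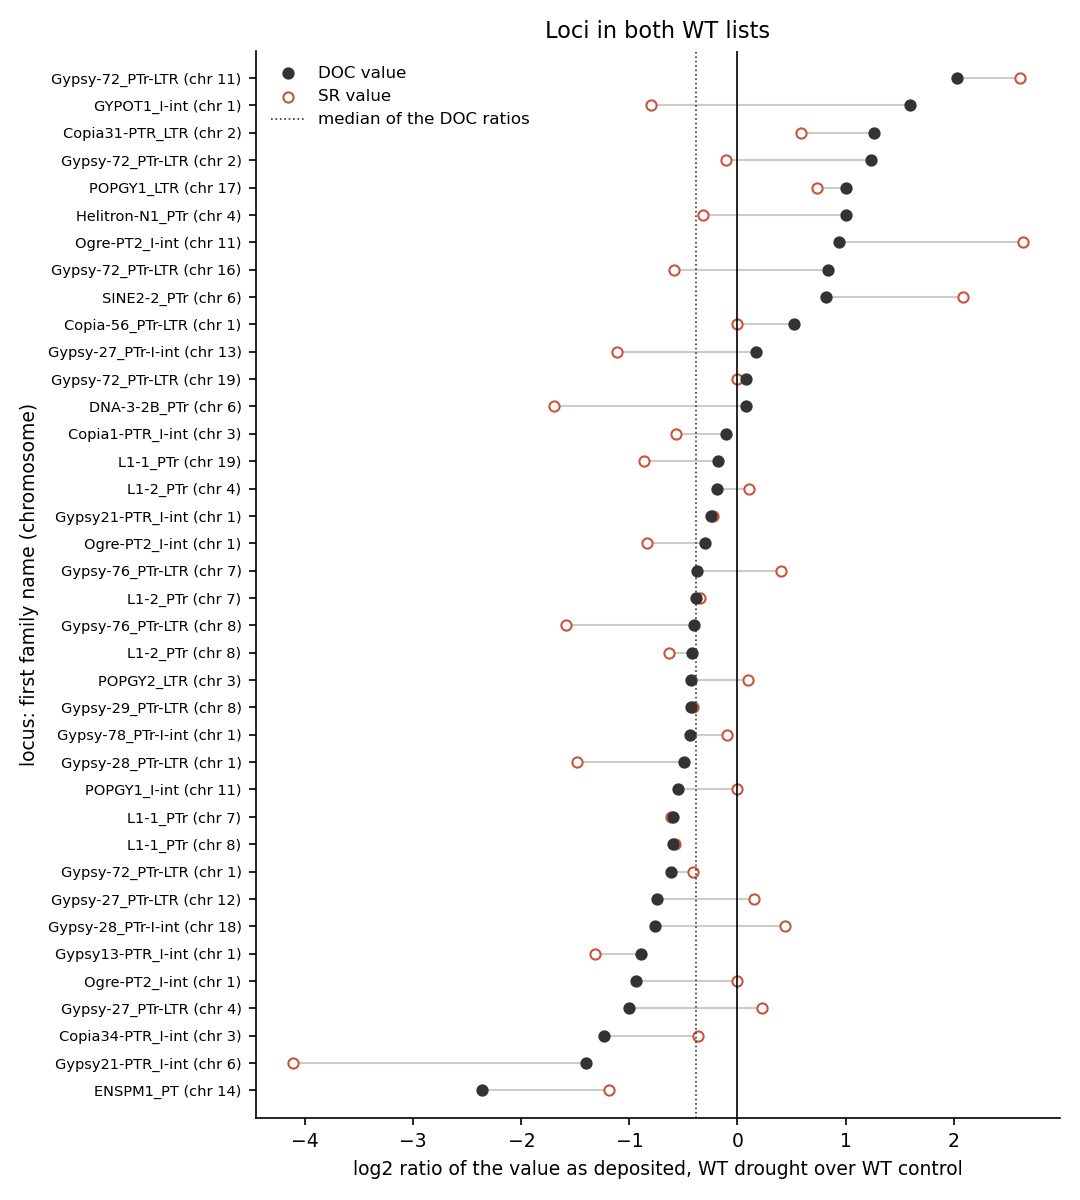
Log2 ratio of the DOC value (filled) and of the SR value (open) as deposited, WT drought over WT control, at each of the 38 shared loci in order of the DOC ratio, with a dotted line at the median DOC ratio of -0.38. DOC ratios run from 2.03 at Gypsy-72_PTr-LTR on chromosome 11 to -2.36 at ENSPM1_PT, and 12 loci have DOC and SR ratios of opposite sign.

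The DOC and SR values did not always go together. SR was lower after drought at 23 shared loci, higher at 11 and equal at 4, with a median log2 ratio of -0.33. Both signals were lower at 17 loci and both higher at 5. At 6 loci DOC was lower and SR higher, and at another 6 DOC was higher and SR lower. Over the 38 loci the ratios of the signals had a Spearman's rho of 0.279, given as a description. SR was at least 4-fold higher after drought at 3 loci, Gypsy-72_PTr-LTR and Ogre-PT2_I-int on chromosome 11 and SINE2-2_PTr on chromosome 6, and at least 4-fold lower at 1, Gypsy21-PTR_I-int on chromosome 6.

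Coverage of the loci differed little. The median fraction covered by DOC was 0.934 in the drought list and 0.925 in the control list, and that covered by SR 0.470 and 0.413. DOC covered the whole locus at 35 loci after drought (30.4%) and 32 under control (21.5%). In both lists DOC was higher at longer loci (Spearman's rho with length 0.595 and 0.593) and the fraction covered by SR was lower there (-0.590 and -0.550), so the shorter drought loci and their higher SR fraction come together. At the 38 shared loci, where length was equal, the SR fraction was lower after drought at 21, higher at 14 and equal at 3.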

How the data were processed

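Mobilome-seq lists of 6 libraries were used, 1 per group. Per the labels' protocols, CTAB extraction was followed by amplification of extrachromosomal DNA, and Nextera XT libraries were read with 2 reads of 250 bp. The submitters' processing notes name Bowtie2, without a version. Genome build, counting tool, filters and listing threshold are not given in any source used here. Per the file headers, the authors deposited 2 signal columns for each locus (DOC and SR) and the covered fraction for each. The fractions were headed as a percent but deposited from 0 to 1. The signals were whole numbers and were taken as unscaled, which the column headers do not state. Whether a signal is a read count or a depth is not stated, so no count model was fitted. Library totals are not used here, and a sum over listed loci is not a sequencing depth.

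Lists were assigned to samples by title. Loci were matched by identical chromosome, start and end, and starts were turned to count from 1. Class and part came from the first family name. Share intervals are exact (Clopper-Pearson), the interval of a ratio of list sizes derives from the exact binomial interval, and intervals of share differences follow Newcombe, all at 95%. They treat loci as independent, although amplified circles and copies of a family are not, cover counting error only, and compare lists, not conditions. A locus at least 2-fold apart was counted as different. No p-value was computed, since 1 library per group leaves none.

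Loci to name were drawn from all shared loci, the 10 highest by DOC, the 10 highest by SR and the 5 longest of each single-list set, loci with SR above DOC, extremes, and families of at least 3 loci, of which the text names a part. The other loci and elements were named after their values were seen, and the count by element was added then. The members and lists were chosen with earlier results of these data known. Alternatives changed the matching, the DOC and length minimum, merging, weighting, scaling and fold. The matching code was checked on lists drawn from the WT control loci, with a preset overlap and preset DOC ratios. Python 3.11.15, pandas 2.3.3, NumPy 2.4.6, SciPy 1.17.1 and Matplotlib 3.10.9 were used.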

Additional observations from a re-analysis of the deposited data

Results flagged for a closer look

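At 5 of the 14 shared WT loci that also had a ratio in an RNAi line, the DOC value went the opposite way after drought in WT and in every RNAi line with a ratio. The differences were not tested, each rests on 1 pair of libraries, and 7 of the 14 loci had a ratio in both lines. SINE2-2_PTr on chromosome 6 was the only one of the 5 with both lines, and its log2 ratio was 0.82 in WT, against -1.56 in line 15 and -0.74 in line 23. Gypsy-72_PTr-LTR on chromosome 2 had 1.24 in WT, against -0.81 in line 15. Ogre-PT2_I-int on chromosome 11 had 0.94 in WT, against -0.14 in line 23. L1-2_PTr on chromosome 7 had -0.39 in WT, against 0.23 in line 15, and POPGY1_I-int on chromosome 11 had -0.55 in WT, against 0.59 in line 15. The signs are those of the values as deposited and depend on the scaling.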

How the results depend on the processing

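No paired analysis was possible because each group had 1 library. The ratio of list sizes was 0.593 with loci of at least 200 bp (64 after drought and 108 under control), 0.606 with a DOC of at least 20 and 0.790 with merged loci. Scaling by list sums, which hold 53.5% to 74.7% of their DOC in 1 locus, turned the median log2 ratio of shared loci to 1.21, or 1.15 without the leading loci. Loci at least 2-fold lower then numbered 0 and higher 27. At a fold of 1.5, 11 were lower. On division by the sum the ratio turned to 0.19 at Gypsy21-PTR_I-int on chromosome 6, 0.35 at Copia34-PTR_I-int and 0.59 at Gypsy-27_PTr-LTR on chromosome 4. Weighted by length, the Gypsy share was 10.9 percentage points higher after drought. The ratio of median lengths, 0.589, was 0.903 with a DOC of at least 20, 0.969 for internal loci and 0.886 for loci without LTRs. The Copia difference in LTR share, from an unplanned split by class, stayed between 36.7 and 50.0 percentage points under its 5 alternatives. The alternatives were chosen after seeing the data, as were those of length. Some of these rest on few loci. With a DOC of at least 20, LTR loci were 4 of 6 after drought and 2 of 12 under control. With at least 200 bp they were 6 of 8 and 4 of 16. The cause of these shifts was not tested.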
